A study of Homo sapiens with 12 samples.

Results

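The laminin chain genes were examined in SW872 cells, a human liposarcoma line, across every group of the series. The set holds 9 of the 58735 genes in the count table, picked by symbol: the α chain genes LAMA1, LAMA2, LAMA3, LAMA4 and LAMA5, the β chain genes LAMB1, LAMB2 and LAMB3, and the γ chain gene LAMC1. The study listed LAMA1 among the matrix genes most lowered by the knock-downs, and it also measured LAMA1 by qRT-PCR. Its filter asked for a fall of 2-fold or more in 2 or more knock-down conditions, from TAZ-CAMTA1 and YAP-TFE3 cells alike. LAMA1 was taken up here for its fall in YAP-TFE3 cells, and the other chains are its family. All cells carried a fusion gene, either TAZ-CAMTA1 (TC) or YAP-TFE3 (YT), delivered in the retroviral vector pBabeNeo and selected with G418 as a pooled line. Each line also carried a stable hairpin, which was non-targeting (shNT, the control) or directed at YEATS2 (shYEATS2) or ZZZ3 (shZZZ3), 2 genes whose proteins belong to ATAC, a chromatin complex that acetylates histones. The 6 groups, TC shNT, TC shYEATS2, TC shZZZ3, YT shNT, YT shYEATS2 and YT shZZZ3, had 2 libraries each, which the study calls biological duplicates. No group lacks a fusion gene, which hairpin sequence was used is not given in the sources used here, and the methods describe collection at sub-confluence for lines with CAMTA1 and at confluence for the others, without saying whether that held for the knock-down lines. Fusion and cell density therefore cannot be told apart in a comparison of TC with YT if it did.

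Laminins are large secreted glycoproteins of the basement membrane, the sheet of matrix that underlies epithelia and endothelia and surrounds muscle, nerve and fat cells. Each is a trimer of an α, a β and a γ chain wound into a cross, and the α chain carries the globular domains that bind integrins, dystroglycan and syndecans on the cell. Trimers with short-arm domains polymerise into a network that nidogens and perlecan join to collagen IV. The α chain is what mainly distinguishes one laminin from another in its receptor binding and tissue, and α1 is best known from early embryonic basement membranes.

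Each library held between 17451893 and 29294805 counted reads. Levels are given as CPM (read counts scaled to a common library size) after TMM scaling, and a gene was called changed at an adjusted p under 0.05 in edgeR's quasi-likelihood test over the 18415 genes that averaged at least 5 counts. All 9 chains passed that filter. The hairpins lowered YEATS2 in both lines (log2 fold change -1.54 in TC and -1.68 in YT, edgeR adjusted p 0.0138 and 1.04e-04) and ZZZ3 in YT (-1.51, edgeR adjusted p 0.0453), whereas in TC the value for ZZZ3 was -0.94 and did not pass (edgeR adjusted p 0.45). The mesenchymal marker VIM lay between 696 and 2152 CPM. Of the fat cell markers, LEP was at 0 in every library and ADIPOQ, FABP4 and CIDEC were at or below 0.296 CPM. PLIN1 was low but detected in every library, between 0.284 and 1.55 CPM, and PPARG lay between 36.8 and 109 CPM. LEP, ADIPOQ, FABP4 and CIDEC were thus absent or close to background in this liposarcoma line. The replicates of TC shNT and of YT shZZZ3 stood apart from each other along the GC content of genes: across 13232 genes, the log2 difference between the replicates correlated with GC at r = 0.789 in TC shNT and 0.704 in YT shZZZ3, against -0.373 to 0.281 in the other 4 groups. These correlations run over genes and not over samples. The SD of that log2 difference was 0.623 in TC shNT, 0.558 in YT shZZZ3 and 0.513 in TC shYEATS2, and 0.213 to 0.268 in the other groups. The replicates of TC shYEATS2 thus also stood apart, though less along GC content.

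The most abundant chains were the ones shared by many trimers. LAMC1, the γ1 chain found in most laminins, lay between 446 and 925 CPM. LAMB1, the β1 chain, lay between 761 and 1521 CPM. LAMB2, the β2 chain known from the neuromuscular junction and the kidney glomerulus, lay between 169.7 and 450.4 CPM. Among the α chains, LAMA4, a chain with a truncated short arm found around vessels, muscle and fat cells, lay between 122 and 350.1 CPM, and LAMA5, the most widespread α chain of adult tissues, between 185 and 529 CPM. LAMB3 and LAMA3, known from the laminin that anchors epithelia, lay at 13.0 to 26.2 and at 7.71 to 17.2 CPM. LAMA2, the α chain of muscle and peripheral nerve, was close to background, at 0.0705 to 5.74 CPM. As a ratio of the highest to the lowest library, LAMA1 spanned the widest range of the 9 chains, from 4.08 to 371 CPM, with LAMA2 next.

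**Figure D1:**
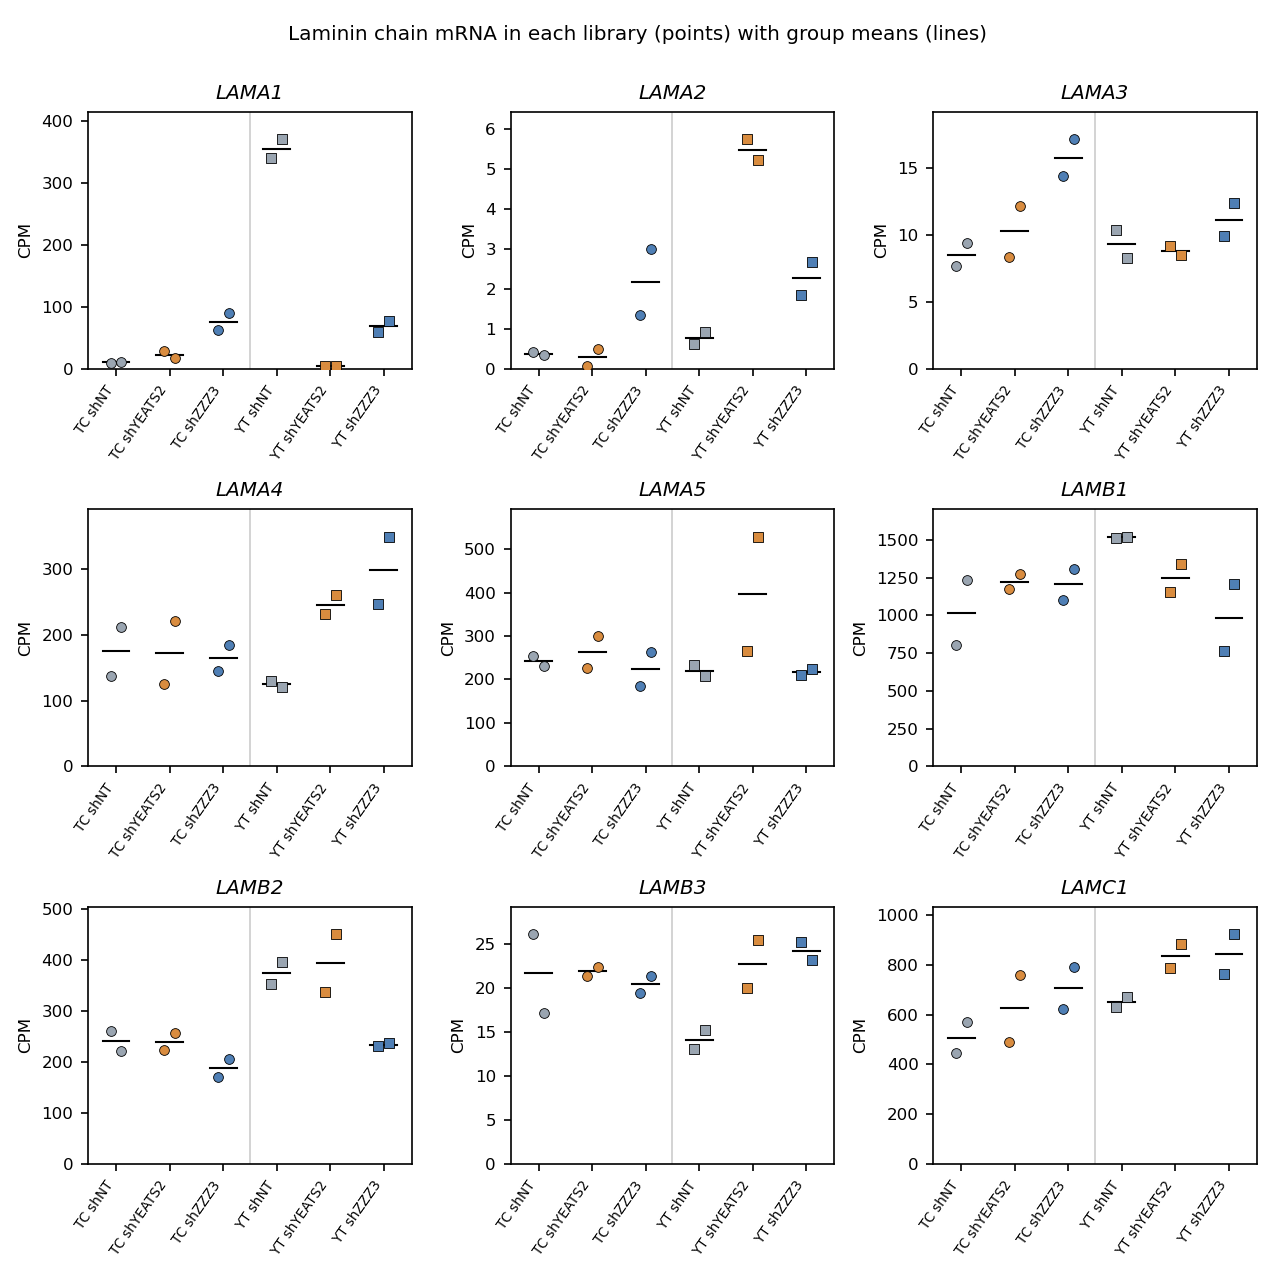
Level of each of the 9 laminin chain genes in CPM (vertical axis, from 0) in the 6 groups; points are single libraries, circles TC and squares YT, and the short line is the mean of 2. LAMA1 stands at 340.0 and 371 CPM in YT shNT and near 4 CPM in YT shYEATS2, while LAMA4 and LAMA2 stand higher in both YT knock-downs than in YT shNT.

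LAMA1 (ENSG00000101680, GRCh38 chromosome 18, 6941742 to 7117797, minus strand) stood at 9.73 and 11.6 CPM in the TC controls, at 28.1 and 16.9 with shYEATS2 and at 62.8 and 89.6 with shZZZ3. The YT controls held 340.0 and 371 CPM, against 4.08 and 4.18 with shYEATS2 and 59.2 and 77.9 with shZZZ3. No 2 groups of the same line overlapped. LAMA1 entered the set because it was lowered in YT, so the comparisons that hold a YT library are descriptions and carry no test: the fitted log2 fold changes were -6.40 for YT shYEATS2, -2.37 for YT shZZZ3 and 5.05 for YT shNT against TC shNT. In TC, the rise with shZZZ3 passed the test (log2 fold change 2.83, SE 0.277, edgeR adjusted p 5.97e-04), in a comparison in which 0.934% of all genes tested were called higher and 0.592% lower. It also passed in each of the 12 fits that left out 1 library, with log2 fold changes from 2.55 to 3.06. With shYEATS2 the TC value was 1.07 (SE 0.265, edgeR adjusted p 0.261; DESeq2 adjusted p 0.0367), and only 0.0326% of all genes were called higher there and 0.0109% lower. In the same libraries the ZZZ3 transcript of TC shZZZ3 stood at 21.9 and 22.7 CPM against 25.6 and 60.4 in TC shNT, without overlap and with the control replicates far apart.

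Seen as a share of the α chain pool, LAMA1 went from a leading chain to a trace one in YT. Levels were divided by the length of the annotated exons for this comparison, since long genes collect more reads. LAMA1 made up 45.7% ± 3.24 (SD, n = 2) of the summed α chain level per kb in the YT control, 0.55% ± 0.155 after shYEATS2 and 9.51% ± 0.222 after shZZZ3. In TC its share was 2.05% ± 0.0412 for the control, 4.38% ± 2.55 for shYEATS2 and 13.5% ± 0.522 for shZZZ3. With the length of the longest transcript in its place, the share in YT shNT was 47.6%, and with no division by length it was 49.9%. LAMA5 and LAMA4 held nearly all of the rest: 31.4% and 21.5% in the YT control, 54.7% and 43.0% after shYEATS2, and 33.95% and 54.7% after shZZZ3. LAMA3 stayed between 0.977% and 3.30% of the pool and LAMA2 below 0.558% in every library.

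Divided by exon length, the size of the α pool moved far less than its makeup. The summed α level per kb was 49.0 ± 0.441 CPM per kb in the YT control, 49.4 ± 14.7 after shYEATS2 and 45.4 ± 7.72 after shZZZ3 (SD, n = 2), and the ranges of the 3 groups overlapped. In TC it was 32.8 ± 3.44, 35.0 ± 9.01 and 35.4 ± 7.48 CPM per kb in the shNT, shYEATS2 and shZZZ3 libraries, also overlapping. The 2 libraries of YT shYEATS2 were 39.0 and 59.8 CPM per kb, which is mostly the gap between their LAMA5 levels. These sums are descriptions and no test was run on them. The overlap depends on the length used: with no division by length, both YT shZZZ3 libraries summed below both YT control libraries.

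**Figure D2:**
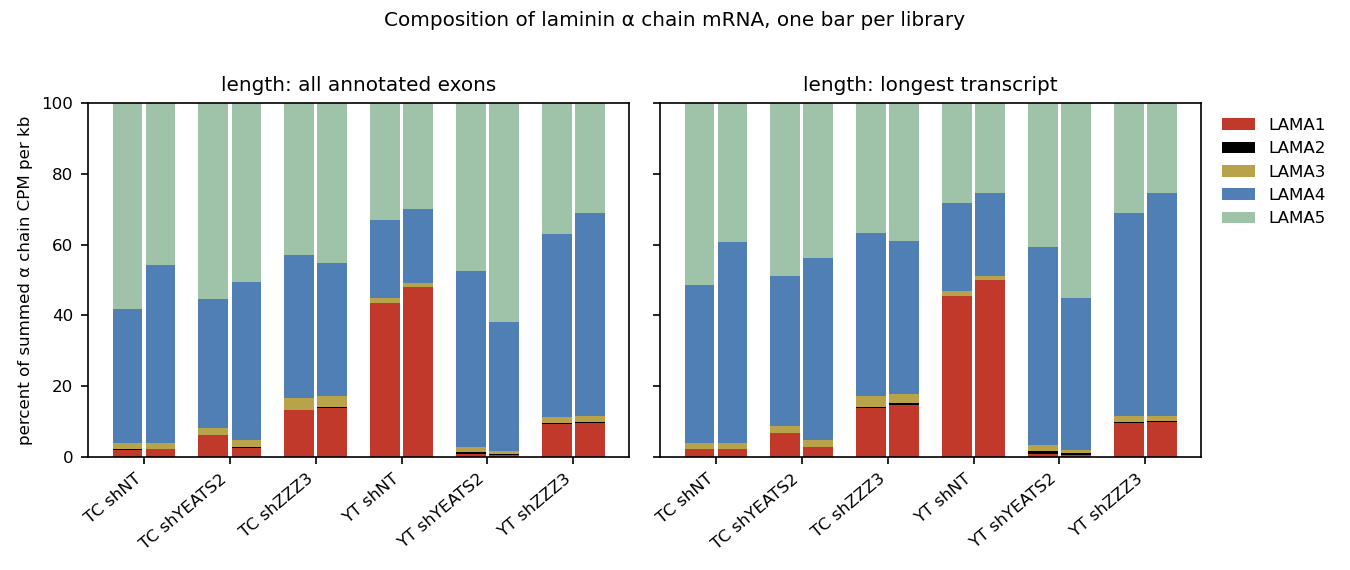
Percent of the summed α chain level per kb held by LAMA1 to LAMA5 (vertical axis), with 1 bar per library, using the length of all annotated exons on the left and of the longest transcript on the right. The LAMA1 part is 43.4% and 48.0% of the bar in YT shNT on the left and under 0.66% in YT shYEATS2, where LAMA4 and LAMA5 fill nearly all of the bar.

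The order of the 9 chains by level per kb was set by LAMC1, LAMB1 and LAMB2 at the top in every group when the exon length was used. In YT shNT the order was LAMB1 at 81.5, LAMC1 at 77.2, LAMB2 at 54.5, LAMA1 at 22.4, LAMA5 at 15.4, LAMA4 at 10.52, LAMB3 at 3.04, LAMA3 at 0.645 and LAMA2 at 0.0294 CPM per kb, with no overlap between neighbours in that order. In TC shNT LAMC1 (60.1) and LAMB1 (54.7) overlapped, as did LAMA5 (16.9) and LAMA4 (14.6), and LAMA1 (0.673) and LAMA3 (0.589). LAMA1 ranked 4 of 9 in YT shNT, 8 of 9 after shYEATS2 in YT and 7 of 9 in TC shNT. The annotated exons of LAMB1 cover 18592 bp while its longest transcript has 6737 bp, so with the longest transcript LAMB1 led in all 6 groups (225 CPM per kb in YT shNT) and overlapped LAMC1 only in YT shZZZ3. The place of LAMA1 in YT shNT was the same with either length.

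Of the 8 chains other than LAMA1, 2 were called higher and 0 lower in YT shYEATS2, where 9.61% of all genes tested were called higher and 11.1% lower. In YT shZZZ3, 1 of the 8 was called higher and 0 lower, against 4.4% and 5.62% of all genes. The median log2 fold change of the 8 was 0.52 in YT shYEATS2 and 0.31 in YT shZZZ3, beside -0.01 and 0.01 for all genes tested. DESeq2 called 4 of the 8 in YT shYEATS2, all higher, and 3 in YT shZZZ3, 2 higher and 1 lower. Over all genes it called 2148 higher and 2245 lower in YT shYEATS2, and 1106 higher and 1249 lower in YT shZZZ3. At an unadjusted edgeR p under 0.05 there were 4 of the 8 in YT shYEATS2 and 5 in YT shZZZ3. The share of all genes at that unadjusted threshold was not computed. Such counts, here and below, therefore have no background beside them and are not a result about the chains or lists. These comparisons share their YT shNT libraries. The samples are bulk RNA, so fewer cells with a transcript and less transcript per cell cannot be told apart.

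LAMA4 (ENSG00000112769, chromosome 6, 112107931 to 112254939, minus strand) stood at 131 and 122 CPM in the YT controls, at 232 and 261 after shYEATS2 and at 248 and 350.1 after shZZZ3. Both knock-downs lay above the control without overlap. The log2 fold change was 0.97 in YT shYEATS2 (SE 0.294, edgeR adjusted p 0.0387) and 1.25 in YT shZZZ3 (SE 0.296, edgeR adjusted p 0.0219). In TC the 6 libraries of LAMA4 lay between 125 and 222 CPM and its groups overlapped. The difference between the lines in the effect of the hairpin was 0.98 for shYEATS2 and 1.33 for shZZZ3 and passed for neither (edgeR adjusted p 0.172 and 0.108; for shZZZ3, 1.65 and 0.044 without TC shNT replicate 1). For shZZZ3 the difference passed with DESeq2 (adjusted p 0.0405), and with edgeR once no filter was set (4.52e-04) or a GC trend was removed (0.0301). For shYEATS2 it passed in edgeR with no filter (0.0194). It also passed with replicate numbers fitted as a block and a GC trend removed (0.00977), or with the YT shNT numbers exchanged in that block (0.0274, no GC removal). The calls were near the threshold. For shYEATS2 the adjusted p was 0.163 and 0.18 without YT shNT replicate 1 or 2, 0.113 and 0.184 without YT shYEATS2 replicate 1 or 2, 0.0557 and 0.0556 without TC shZZZ3 replicate 1 or 2, and 0.0785 with library totals in place of TMM. For shZZZ3 it was 0.13 and 0.161 without YT shNT replicate 1 or 2 and 0.0824 without YT shZZZ3 replicate 2 (log2 fold change 0.97).

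LAMA2 (ENSG00000196569, chromosome 6, 128883138 to 129516566, plus strand) was counted 12 and 16 times in the YT controls, 138 and 101 times after shYEATS2 and 51 and 63 times after shZZZ3. As levels these are 0.634 and 0.92, 5.74 and 5.21, and 1.86 and 2.66 CPM. Groups did not overlap, and the rise with shYEATS2 passed the test (log2 fold change 2.69, 6.46-fold, SE 0.513, edgeR adjusted p 0.00394; 0.0615 without YT shNT replicate 1), while that with shZZZ3 was 1.44 (edgeR adjusted p 0.106; 0.0461 without either library of TC shYEATS2 and 0.00261 with no filter). In TC the counts were 11 and 7 for the control, 2 and 10 for shYEATS2 and 33 and 56 for shZZZ3. The TC shZZZ3 libraries lay above the control at a log2 fold change of 2.25 (edgeR adjusted p 0.0738, and 0.0264 without either library of TC shYEATS2; DESeq2 adjusted p 0.00363). That value passed with no filter (7e-06) or a GC trend removed (0.0443).

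LAMA2 was also the 1 chain of the 8 for which the effect of shYEATS2 differed between the lines by the interaction test, with a difference (YT minus TC) of 3.11 (SE 0.86, edgeR adjusted p 0.0441), where 3.53% of all genes had a higher and 5.84% a lower difference called. That call was lost in 6 of the 12 fits without 1 library: TC shNT replicate 1 (adjusted p 0.133), TC shYEATS2 replicate 1 (0.106, difference 2.38), YT shNT replicate 1 or 2 (0.144 and 0.0964) and YT shYEATS2 replicate 1 or 2 (0.12 and 0.107). With library totals in place of TMM the adjusted p was 0.0623. For shZZZ3, 0 of the 8 chains were called in the interaction by edgeR (3 at an unadjusted p under 0.05, 1 by DESeq2), with 1.46% of all genes called higher and 2.86% lower. The medians of the 8 differences were 0.37 for shYEATS2 and -0.21 for shZZZ3, beside -0.01 and 0.04 for all genes.

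Since LAMA2 and LAMA4 were the chains called in YT, and both lie on the long arm of chromosome 6, the 250 bases before their RefSeq transcription starts (GRCh38.p14) are shown, LAMA4 at chr6:112254568-112254817 on the minus strand and LAMA2 at chr6:128882888-128883137 on the plus strand. Capitals mark a match to GGAATG, the core of the TEAD motif through which YAP and TAZ reach DNA.
LAMA4: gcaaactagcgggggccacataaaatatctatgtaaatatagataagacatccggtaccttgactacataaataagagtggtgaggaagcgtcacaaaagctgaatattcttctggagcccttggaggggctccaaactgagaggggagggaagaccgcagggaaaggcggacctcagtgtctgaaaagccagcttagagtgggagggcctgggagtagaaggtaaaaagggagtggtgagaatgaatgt
LAMA2: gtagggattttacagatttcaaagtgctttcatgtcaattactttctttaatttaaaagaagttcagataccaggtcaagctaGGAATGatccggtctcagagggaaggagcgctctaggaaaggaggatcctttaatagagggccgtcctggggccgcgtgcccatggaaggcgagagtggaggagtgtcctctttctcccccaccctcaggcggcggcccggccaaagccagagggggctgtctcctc
A promoter entry was matched for 8 of the 9 chains, and LAMA1 is named only. On both strands, the letters GGAATG were found in the LAMA2 window alone, starting 167 bases before the start, and they occur in 11.9% of 35116 promoter windows of the same length. The E-box CACGTG, which MITF and TFE factors bind, was in none of the windows of the 8 chains and in 6.34% of all windows. The AP-1 letters TGANTCA were in the LAMA3 window at 125 and 69 bases and in 1 of 3 LAMB3 windows at 67 bases before the start, against 6.57% of all windows. A match is a description of the letters.

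The remaining α chains did not pass in the edgeR test described above. LAMA5 held 232 and 208 CPM in the YT controls and 265 and 529 after shYEATS2, so that the groups did not overlap and the replicates of the knock-down lay far apart (log2 fold change 0.85, edgeR adjusted p 0.0612; DESeq2 adjusted p 0.0271). It passed without TC shNT replicate 1 or 2 (edgeR adjusted p 0.0428 and 0.0411), without YT shYEATS2 replicate 1 (1.28, 0.0174) and with no filter on low counts (0.00121). In YT shZZZ3 it was present at 211 and 225 CPM, within the range of the control. The exons of LAMA5 have a GC content of 66.4%, above 98.3% of the genes that average at least 50 counts, and ADRM1, which overlaps it on the opposite strand, held up to 6490 counts, so reads of the pair could be mixed where strand was not used in counting. LAMA3 was present at 7.71 and 9.37 CPM in TC shNT and at 14.4 and 17.2 in TC shZZZ3 without overlap (0.88, edgeR adjusted p 0.147; DESeq2 adjusted p 0.0444), and the YT groups lay between 8.28 and 12.3 CPM.

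None of the β chains passed in the edgeR test described above, though LAMB2 and LAMB3 lay close to its threshold. LAMB1 held 1510.4 and 1521 CPM in the YT controls, 1156 and 1339.8 after shYEATS2 and 761 and 1206 after shZZZ3, with both knock-downs below the control. For shYEATS2 the log2 fold change of LAMB1 was -0.28 (edgeR adjusted p 0.466, and 0.0404 with the contrast fitted alone). For shZZZ3 its log2 fold change was -0.62 (edgeR adjusted p 0.163; -0.9996 and 0.0475 without YT shZZZ3 replicate 2). DLD, which overlaps LAMB1 on the opposite strand, held up to 3377 counts. LAMB2 went from 353 and 395 CPM in the YT controls to 231 and 237 after shZZZ3 (-0.68, edgeR adjusted p 0.0503, and 0.0343 without either TC shNT library; DESeq2 adjusted p 0.0204). This call also passed with library totals (edgeR adjusted p 0.0472), no filter (0.0478), a mean of at least 50 counts (0.0481) or a GC trend removed (0.0236). LAMB3 held 13.0 and 15.2 CPM in the YT controls, 20.02 and 25.5 after shYEATS2 and 25.3 and 23.2 after shZZZ3. The log2 fold changes of LAMB3 were 0.68 and 0.77 (edgeR adjusted p 0.061 and 0.0613; DESeq2 adjusted p 0.0293 and 0.0205), and both passed without TC shNT replicate 1 (edgeR adjusted p 0.0223 and 0.02) or 2 (0.022 and 0.0194). For shZZZ3 LAMB3 also passed with library totals (0.0469), no filter (0.0421) or a GC trend removed (0.0195), and for shYEATS2 with the contrast fitted alone (0.00401). LAMB2 was at 336 and 450.4 CPM in YT shYEATS2, a range that holds both control values. Without overlap between groups, LAMB1 and LAMB2 were lower and LAMB3 was higher in YT shZZZ3 than in the YT control.

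The γ chain LAMC1 held 446 and 569 CPM in the TC controls, 492 and 762 after shYEATS2 and 622 and 793 after shZZZ3. In YT it held 631 and 673 CPM in the controls, 789 and 886.5 after shYEATS2 and 765 and 925 after shZZZ3. Both YT knock-downs lay above the YT control, at log2 fold changes of 0.36 and 0.37 that did not pass (edgeR adjusted p 0.301 and 0.371). For shYEATS2 the value passed only with the contrast fitted alone (edgeR adjusted p 0.0102). LAMC1 held 95.2% to 99.2% of the level per kb of LAMC1 and LAMC3 together in the group means. Across the 12 libraries LAMC1 went with LAMA2 (r = 0.816) and with LAMA4 (r = 0.76), and LAMB1 went against LAMB3 (r = -0.661). By rank (Spearman's rho) the values were 0.853, 0.734 and -0.448. LAMB1 and LAMB3 also moved in opposite directions between the replicates of TC shNT, at 802 and 1231 CPM for LAMB1 and 26.2 and 17.2 for LAMB3. The same held between the replicates of YT shZZZ3. The correlations are descriptions over libraries that fall into groups, and they carry no p.

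**Figure D3:**
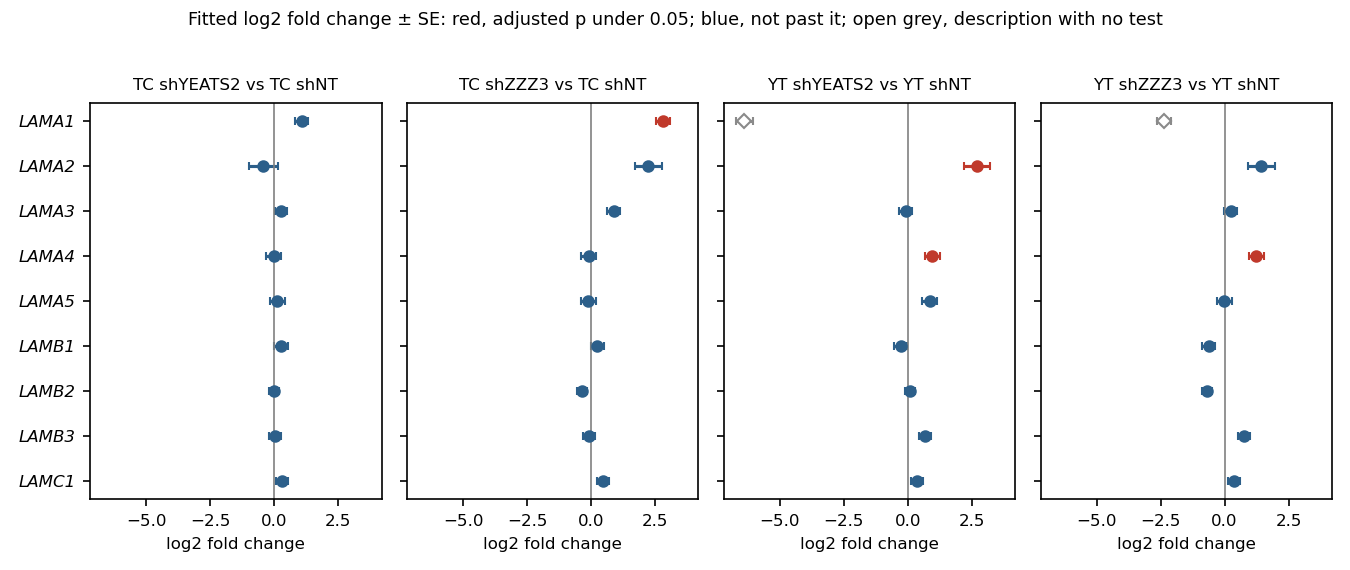
Fitted log2 fold change (horizontal axis) ± SE of each chain in the 4 knock-down comparisons; red points passed an edgeR adjusted p under 0.05, blue points did not, and open grey diamonds are LAMA1 in YT, given with no test. In TC only LAMA1 in shZZZ3 is red (2.83), and in YT the red points are LAMA2 and LAMA4 in shYEATS2 (2.69 and 0.97) and LAMA4 in shZZZ3 (1.25).

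In TC, edgeR called 0 of the 8 chains other than LAMA1 with either hairpin. For shYEATS2, 0 had an unadjusted p under 0.05 and DESeq2 called 0. For shZZZ3, 2 had an unadjusted p under 0.05 and DESeq2 called 2, the chains LAMA2 and LAMA3. Over all genes DESeq2 called 318 higher and 213 lower with that hairpin. The median log2 fold change of the 8 was 0.07 with shYEATS2 and 0.08 with shZZZ3, beside -0.01 for all genes in each. Between the controls, YT shNT against TC shNT, edgeR called 0 of the 8, where 5.58% of all genes were called higher and 3.65% lower. Of the 8, 3 had an unadjusted p under 0.05, with no share of all genes computed at that threshold, and DESeq2 called 1. Over all genes DESeq2 called 1304 higher and 951 lower there. The nearest to the threshold was LAMB2, at 353 and 395 CPM in YT shNT against 260.5 and 221 in TC shNT (0.64, edgeR adjusted p 0.0666, and 0.0224 with a GC trend removed; DESeq2 adjusted p 0.0307). Without TC shNT replicate 2, LAMB3 passed as lower in YT shNT (-0.91, edgeR adjusted p 0.0233, against -0.62 and 0.135 with all libraries), and its difference between the lines in the effect of shZZZ3 then also passed (1.18, 0.0442).

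Outside the set, LAMC3, the γ3 chain, fell in YT shYEATS2. Its libraries held 22.3 and 24.8 CPM in the YT controls, 5.91 and 8.93 after shYEATS2 and 16.5 and 13.9 after shZZZ3, all without overlap. The log2 fold change was -1.66 with shYEATS2 (SE 0.257, edgeR adjusted p 0.00117) and -0.63 with shZZZ3 (edgeR adjusted p 0.144). In TC it lay between 21.5 and 34.1 CPM in the 6 libraries, and the interaction for shYEATS2 passed (-1.95, edgeR adjusted p 0.00557). Both LAMC3 calls passed in each of the 12 fits that left out 1 library. LAMB4 lay between 0.846 and 1.69 CPM and was not called in any comparison.

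Of 13 partner genes of laminin in the basement membrane, 4 were called higher and 2 lower in YT shYEATS2, where 9.61% of all genes were called higher and 11.1% lower. COL4A1 and COL4A2, the most common collagen IV chains, were present at 102 and 108 and at 144 and 160.3 CPM in the YT controls, and at 167 and 222 and at 229.85 and 333 after shYEATS2. Both rose by 0.89 on the log2 scale (edgeR adjusted p 0.0396 and 0.0127), and both calls were lost once a GC trend was removed; they are named here after their values were seen. COL4A4, a chain of specialised collagen IV networks, rose by 1.89 from 14 and 6 counts to 52 and 46 (edgeR adjusted p 0.0039; 0.0527 without YT shNT replicate 2). NID2, a nidogen that links laminin to collagen IV, went from 31.9 and 28.2 CPM to 73.8 and 86.6 (1.41, edgeR adjusted p 0.0257).

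COL15A1, a collagen of the outer face of basement membranes, fell from 1191.5 and 1488 CPM in the YT controls to 432 and 484 after shYEATS2 and to 452 and 463 after shZZZ3 (-1.55 in each, edgeR adjusted p 0.0016 and 0.00337), and passed in all 12 fits without 1 library. Between the controls COL15A1 was higher in YT (1.31, edgeR adjusted p 0.00825; 0.098 without YT shNT replicate 2) and NID2 was lower (-1.52, edgeR adjusted p 0.0336; lost in 7 of 12 fits without 1 library, up to 0.202). NTN1, the laminin-related guidance protein netrin-1, was counted 39 and 30 times in the YT controls and 4 and 7 times after shYEATS2 (-2.52, edgeR adjusted p 0.00326; 0.055 without YT shYEATS2 replicate 1), and 26 and 31 times in the TC controls and 96 and 94 times after shZZZ3 (1.79, edgeR adjusted p 0.048). The effect of shYEATS2 on NTN1 differed between the lines by -4.04 (edgeR adjusted p 0.0018). In YT shZZZ3 the partner calls were NID2, higher (1.55, edgeR adjusted p 0.0291), and COL15A1. In TC shZZZ3 COL15A1 was lower (-1.16, edgeR adjusted p 0.0464), and in TC shYEATS2 edgeR called 0 of the 13 (3 at an unadjusted p under 0.05, 0 by DESeq2).

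NID2 was 1 of several calls here that did not hold without a library. In YT shYEATS2 it was lost without either library of YT shNT or of YT shYEATS2 (adjusted p up to 0.146), and in YT shZZZ3 without either library of YT shNT or YT shYEATS2 or without YT shZZZ3 replicate 2 (up to 0.194). The TC shZZZ3 calls of NTN1 and COL15A1 were each lost in 8 of 12 fits, those without a library of TC shNT, TC shZZZ3, YT shNT or YT shYEATS2 (up to 0.337 and 0.438). COL4A1 was lost in 6 fits, without a library of TC shZZZ3, YT shNT or YT shYEATS2 (up to 0.256), and COL4A2 in 3, without YT shNT replicate 1 or 2 or YT shYEATS2 replicate 2 (up to 0.142).

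Of 12 laminin receptor genes, 2 were called higher and 1 lower in YT shYEATS2, near the background of 9.61% and 11.1% of all genes. ITGA7, the laminin-binding integrin chain of muscle, went from 2.69 and 2.65 CPM to 5.66 and 8.83 (1.41, edgeR adjusted p 0.00959), and ITGB4, the integrin chain of hemidesmosomes, from 17.95 and 18.8 to 40.9 and 50.3 (1.31, edgeR adjusted p 0.0118). SDC2, a syndecan that binds matrix through heparan sulfate, went from 51.2 and 53.0 to 34.01 and 28.8 (-0.73, edgeR adjusted p 0.0102; the call was lost once a GC trend was removed). These 3 calls were each lost without YT shNT replicate 1 or 2 or YT shYEATS2 replicate 2 (adjusted p up to 0.0894, 0.0894 and 0.104). In TC, SDC2 moved the other way: it held 54.7 and 56.6 CPM in the controls, 132 and 115 after shYEATS2 (1.15, edgeR adjusted p 0.0441) and 129 and 126 after shZZZ3 (1.19, edgeR adjusted p 0.00461). The TC shYEATS2 call was lost in 9 of 12 fits without 1 library (up to 0.178), and that of TC shZZZ3 without either of its own libraries (up to 0.0703). The interaction for SDC2 passed for shYEATS2 (-1.88, edgeR adjusted p 6.11e-04) and shZZZ3 (-1.41, edgeR adjusted p 0.00748; 0.0554 without YT shNT replicate 2). In YT shZZZ3 edgeR called 0 of the 12 receptors (1 at an unadjusted p under 0.05, 0 by DESeq2), and between the controls ITGA2, a collagen and laminin receptor chain, and SDC4 were higher in YT shNT (1.69 and 1.24, edgeR adjusted p 0.00973 and 0.0214), each lost without either YT shNT library (up to 0.0784 and 0.146).

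Dystroglycan binds the globular domains of laminin α chains only after a sugar chain, matriglycan, has been built on it, and 12 genes of that pathway were tested as a list. In YT shYEATS2, 4 were called higher and 1 lower, against 9.61% and 11.1% of all genes. LARGE2, a matriglycan polymerase, went from 2.32 and 2.47 CPM in the controls to 8.99 and 10.7 (log2 fold change 2, SE 0.296, edgeR adjusted p 8.72e-04). POMT2, an O-mannosyltransferase that starts the chain, went from 24.1 and 22.8 CPM to 49.4 and 48.4 (1.06, edgeR adjusted p 0.00317), and both calls passed in all 12 fits without 1 library. RXYLT1 was lower by -0.73 (edgeR adjusted p 0.0376) and was lost in 6 of those fits, without a library of TC shZZZ3, YT shNT or YT shYEATS2 (up to 0.238), and with a GC trend removed. The other genes called higher were POMGNT1 (0.80, edgeR adjusted p 0.0296) and B4GAT1 (0.84, edgeR adjusted p 0.0259), named here after their values were seen and both lost without a library of YT shNT or YT shYEATS2 (up to 0.148 and 0.139).

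In YT shZZZ3 edgeR called 0 of the 12 (3 at an unadjusted p under 0.05, 1 by DESeq2). In the TC comparisons it also called 0, with 0 and 1 at an unadjusted p under 0.05 for shYEATS2 and shZZZ3 and 0 by DESeq2 in each. Between the controls LARGE2 was lower in YT (-1.34, edgeR adjusted p 0.0161), lost without TC shNT replicate 1 or either YT shNT library (up to 0.128). DAG1, the gene of dystroglycan itself, lay between 250.4 and 430.4 CPM across the 12 libraries and was not called in any comparison.

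**Figure D4:**
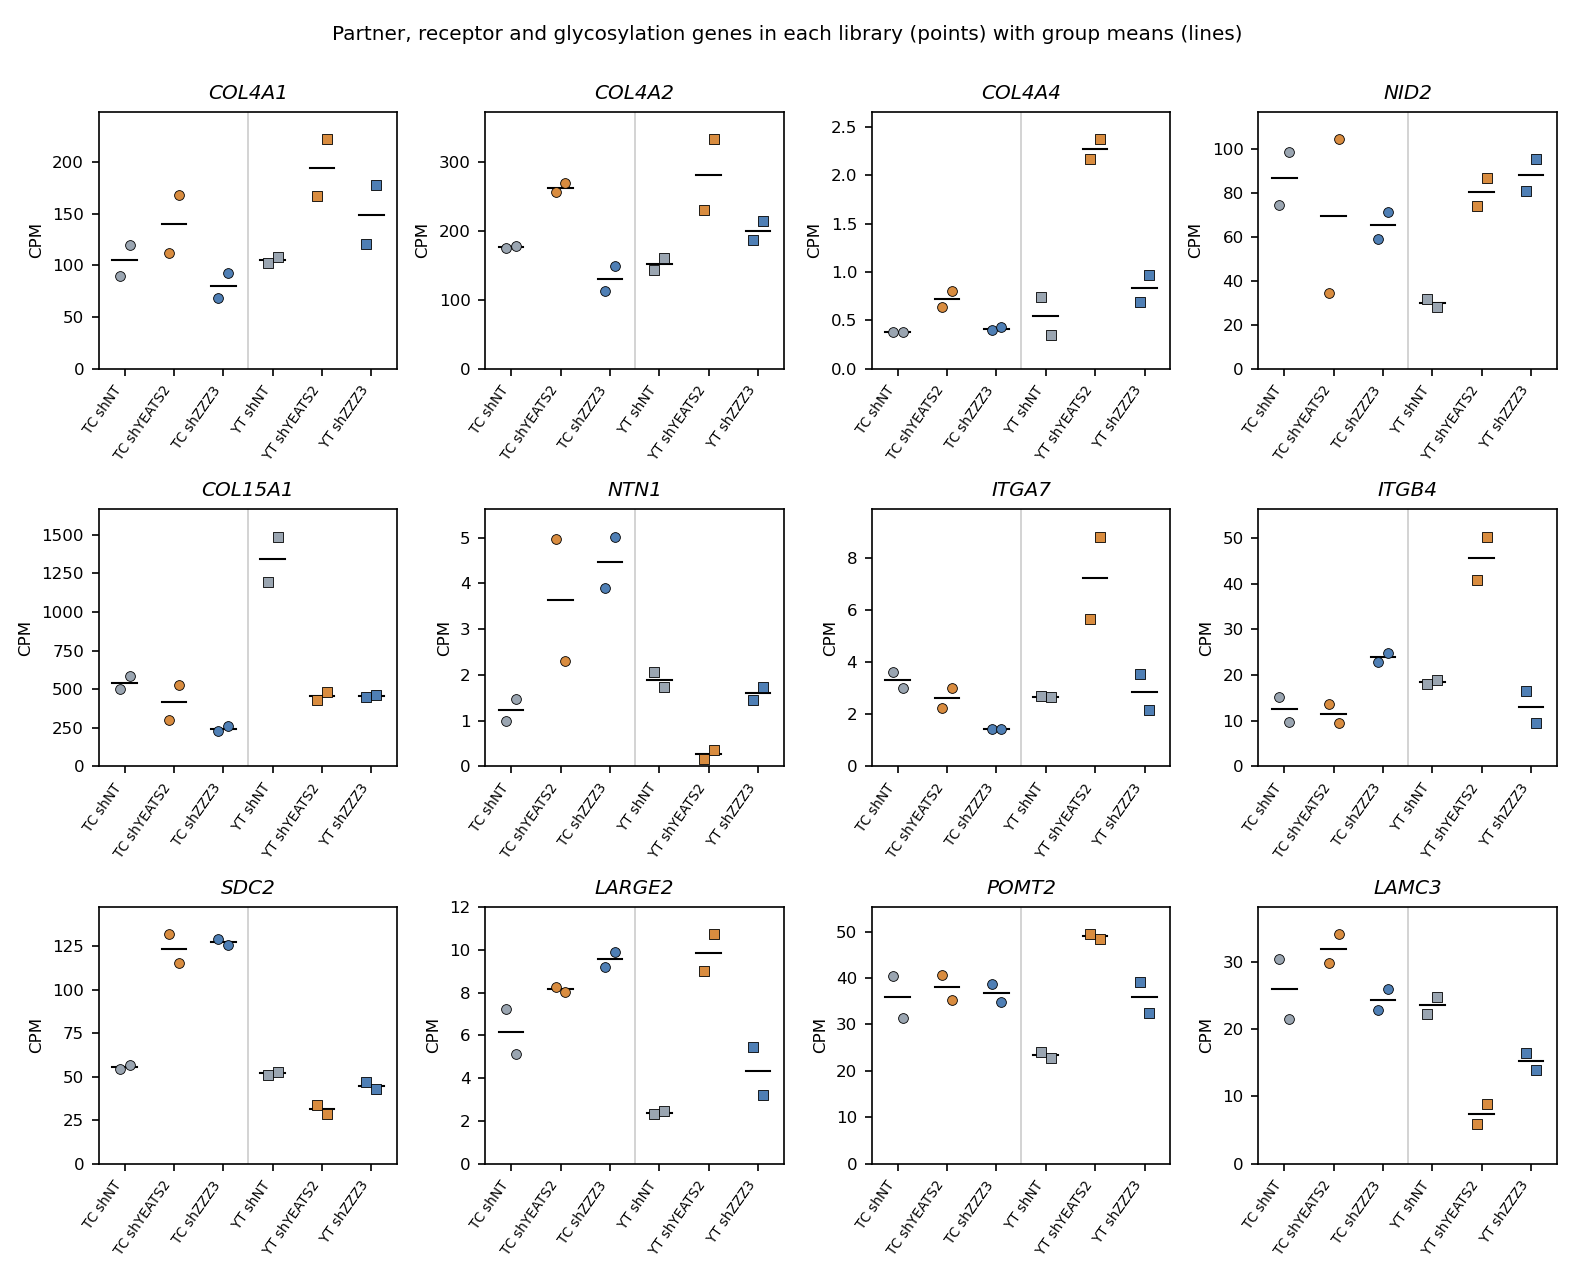
CPM (vertical axis, from 0) of 12 genes around laminin in the 6 groups: collagen and nidogen genes, netrin-1, receptors, the glycosylation genes LARGE2 and POMT2, and LAMC3; points are single libraries, circles TC and squares YT, and lines are means of 2. LARGE2 and POMT2 rise from the YT control to its shYEATS2 libraries without overlap, and the SDC2 panel shows 115 to 132 CPM in the TC knock-downs and at most 56.6 CPM elsewhere.

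The genes whose pattern was most like that of LAMA1 were found by Pearson's r of log2 CPM over the 12 libraries, among 13257 genes. They were MSANTD3 (r = 0.962), HSPB8 (0.959), a small heat shock protein, KLHL29 (0.958), LINC00540 (0.957), a long non-coding RNA, and IL6R (0.955), the interleukin-6 receptor. LINC00540 had the most similar range, at 17.6 and 18.9 CPM in the YT controls and 0.0832 and 0.0516 after shYEATS2. MSANTD3 moved over a far smaller range, from 22.4 to 47.3 CPM. The likeness is set mainly by the high YT shNT and low YT shYEATS2 libraries, and it carries no p.

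**Figure D5:**
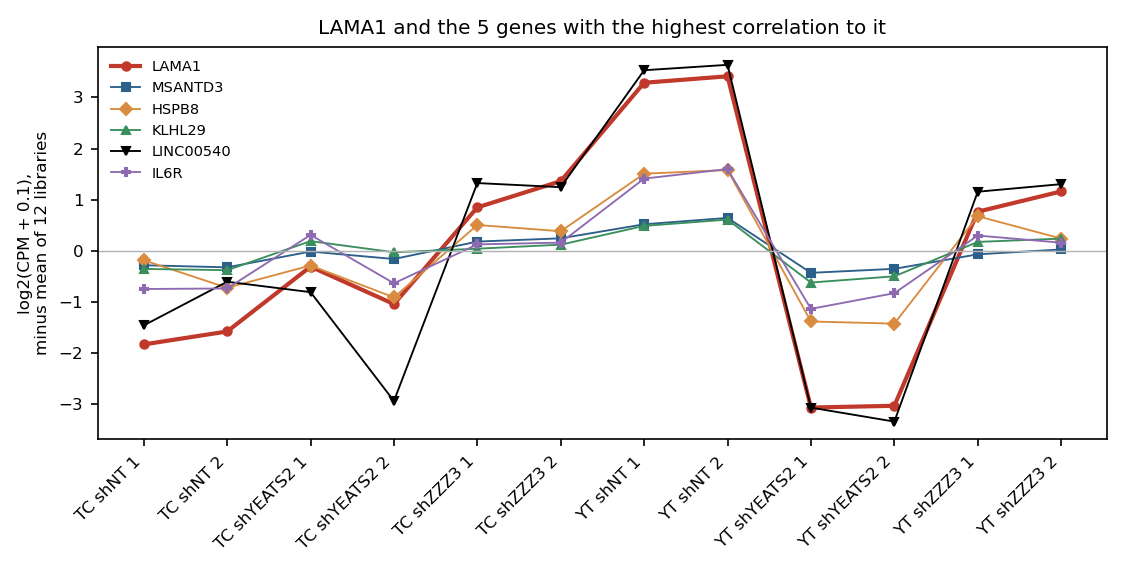
Level of LAMA1 and the 5 genes most correlated with it over the 12 libraries, as log2(CPM + 0.1) minus the mean of the 12 (vertical axis); each line is 1 gene. LAMA1 and LINC00540 swing by about the same amount, while MSANTD3 and KLHL29 move over a much narrower range.

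The genome neighbours of the chains did not share their pattern as a rule. ARHGAP28, which lies 26026 bp from LAMA1 on the opposite strand, was lower in YT shYEATS2 (log2 fold change -2.18, edgeR adjusted p 0.00126) and was not called in YT shZZZ3 (-0.69, edgeR adjusted p 0.219) or between the controls (-0.19, edgeR adjusted p 0.762). PTPRM and L3MBTL4, farther away, were not called in those comparisons, and LRRC30 was at 0 counts. Beside LAMA4, TUBE1 at 20402 bp was lower in both YT knock-downs (-1.80 and -1.30, edgeR adjusted p 0.0015 and 0.0152), opposite in sign to LAMA4, MARCKS at 1602406 bp was higher in YT shYEATS2 (0.90, edgeR adjusted p 0.0302), and FAM229B at 5141 bp was not called. Beside LAMA2, ARHGAP18 was lower in YT shZZZ3 (-1.29, edgeR adjusted p 0.0272) and PTPRK was not called. Genes annotated on the opposite strand within LAMA1, LAMA2 and LAMA4 held at most 5 counts in any library.

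Markers of other cell types also differed between these groups, and some sums differed widely between replicates. The summed level of 9 skeletal muscle markers was 172 and 163 CPM in the YT controls, 1.96 and 2.89 after shYEATS2, 38.5 and 43.2 after shZZZ3 and between 5.16 and 14.5 in TC, the same order of YT groups as LAMA1. In the YT controls nearly all of it was the myosins MYH8 (124 and 118 CPM) and MYH2 (42.4 and 40.4 CPM). MYF5 was at 0 in every library and MYOD1 and MYOG were at or below 0.592 CPM. TTN did not follow that order, with 8 and 8 counts in the YT controls and 27 and 27 after shZZZ3. Of the 6 mesenchymal markers, 4 were called higher and 1 lower in YT shYEATS2, where 9.61% of all genes were called higher and 11.1% lower. In YT shZZZ3, 3 were called higher and 0 lower, against 4.4% and 5.62% of all genes. Their summed level was 1915 and 2007 CPM in the YT controls, 4124 and 4016 after shYEATS2 and 4140 and 2843 after shZZZ3. In TC it was 3166 and 2278 CPM in the controls, 2392 and 2600 after shYEATS2 and 3225 and 3146 after shZZZ3. The 5 endothelial markers summed to 43.5 and 46.8 CPM in the YT controls, 30.1 and 32.7 after shYEATS2 and 133 and 126 after shZZZ3. CDH5 and PECAM1 were called higher and 0 lower in YT shZZZ3, against 4.4% and 5.62% of all genes. ERG was called lower and 0 higher in YT shYEATS2, against 11.1% and 9.61% of all genes. The markers did not move together. After shYEATS2 PECAM1 went from 2.06 and 2.70 CPM in the YT controls to 6.49 and 5.73, while ERG lay below its control in both YT knock-downs. In TC the endothelial sums were 65.99 and 78.8 CPM in the controls, 65.7 and 142 after shYEATS2 and 77.5 and 74.35 after shZZZ3. Behind the last of these sums, TEK went from 19.1 and 26.6 CPM in the TC controls to 7.19 and 9.19. Of the 5 endothelial markers, 1 was called lower in TC shZZZ3 and 1 in YT shNT against TC shNT, against 0.592% and 3.65% of all genes. The 5 epithelial markers summed to 535 and 285 CPM in the TC controls, 912 and 290 after shYEATS2 and 911 and 748 after shZZZ3. In YT they summed to 501 and 562 CPM in the controls, 567 and 473 after shYEATS2 and 717 and 403 after shZZZ3. Leukocyte markers summed to at most 0.765 CPM. The part of these shifts in the laminin values was not tested.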

How the data were processed

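RNA-Seq libraries (poly(A), TruSeq stranded) of SW872 cells in 6 groups of 2 were used. The deposited tables hold raw read counts per gene, aligned by the authors to hg38 with Ensembl annotation; the methods name Hisat2 for alignment and, beside it, Salmon with tximport for gene counts; which of these made the deposited counts, and with what strand setting, is not given in the sources used here. Totals ran from 17451893 to 29294805 counts, which is the depth behind every level. From the counts, CPM with TMM factors and edgeR 4.0.16 quasi-likelihood tests (R 4.3.3; robust; prior count 2; genes averaging at least 5 counts over the 12 libraries, 18415 of 58735; all 6 groups in 1 fit; Benjamini-Hochberg over all genes tested; adjusted p under 0.05) were computed for 7 contrasts, 2 of them interactions. The SE is the log2 fold change divided by the square root of F. P-values measure the spread between duplicate libraries and assume that they are separate cultures.

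Members and lists were chosen with earlier results of these data known. Named genes were all chains, the 2 called genes with the largest change per list, contrast and direction, the 5 genes most like LAMA1 and the 2 nearest coding genes on each side of LAMA1, LAMA2 and LAMA4. Some genes of the lists are not reported here. Gene positions and lengths came from GENCODE 44 (99.1% of IDs matched) and promoters from RefSeq. Alternatives were DESeq2 1.42.0, RLE factors, library totals, no filter, a mean of at least 50 counts, each contrast fitted alone, a replicate block, a GC trend removed, both together and leaving out each library. Code was tested on simulated data.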

Additional observations from a re-analysis of the deposited data

Results flagged for a closer look

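For the chains, LAMA1 stood above its control in both libraries of each TC knock-down and below it in both libraries of each YT knock-down (the TC shYEATS2 value of 1.07 did not pass, edgeR adjusted p 0.261), with fitted differences (YT minus TC) of -7.47 for shYEATS2 and -5.20 for shZZZ3; the difference was not tested because LAMA1 was chosen for its fall in YT. By the interaction test for shYEATS2, LAMA2 differed by 3.11 (edgeR adjusted p 0.0441) and LAMC3 by -1.95 (0.00557). Among the genes around laminin, the effect of shYEATS2 differed between the lines for NTN1 by -4.04 (edgeR adjusted p 0.0018), ITGA7 by 1.74 (0.0318), SDC2 by -1.88 (6.11e-04), LARGE2 by 1.61 (0.0283) and POMT2 by 0.98 (0.0457). For shZZZ3 it differed for SDC2 by -1.41 (edgeR adjusted p 0.00748). ITGA7, LARGE2 and POMT2 lost the call in 7, 8 and 8 of the 12 fits without 1 library.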

How the results depend on the processing

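Every count here is of the 8 chains other than LAMA1, except where all genes are named. For TC shYEATS2 (0) it was 0 under every alternative. For TC shZZZ3 (0) it was 2 with DESeq2, 1 with no filter, 1 with a GC trend removed, and 0 to 1 without 1 library. For YT shYEATS2 (2) it was 4 with DESeq2, 3 with no filter, 1 with library totals, 1 with a mean of at least 50 counts, 5 with the contrast fitted alone, and 0 to 4 without 1 library. For YT shZZZ3 (1) it was 3 with DESeq2, 3 with library totals, 4 with no filter, 2 with a mean of at least 50 counts, 3 with a GC trend removed, and 0 to 3 without 1 library. For YT shNT against TC shNT (0) it was 1 with DESeq2, 1 with a GC trend removed, and 0 to 1 without 1 library. For the interaction of shYEATS2 (1) it was 0 with library totals, 0 with a mean of at least 50 counts, which leaves LAMA2 out of the test, 2 with no filter, and 0 to 2 without 1 library. For that of shZZZ3 (0) it was 1 with DESeq2, 1 with no filter, 1 with a GC trend removed, and 0 to 1 without 1 library. The cause of these shifts was not tested. RLE factors changed none of the 7 counts. Calls over all genes moved too. In YT shYEATS2 they were 3821 in the main fit, 4393 with DESeq2, 4872 with no filter and 8784 with the contrast fitted alone. Library totals gave 3860 and a mean of at least 50 counts 2941 there. In YT shZZZ3 they were 1846 in the main fit, 2355 with DESeq2, 2682 with no filter and 3791 with a GC trend removed. In the same order they were 281, 531, 744 and 681 in TC shZZZ3 and 795, 1274, 1549 and 1946 in the interaction of shZZZ3. The share of LAMA1 in the α pool of YT shNT (45.7%) was 49.9% with no division by length and 47.6% with the longest transcript, the latter chosen after seeing the data. The TC shYEATS2 value of LAMA1 passed with no filter (1.05, adjusted p 0.00358) as well as with DESeq2. None of the log2 fold changes followed through the alternatives (61 in all) changed sign. They were those of LAMA1 and, for other genes, only values that some fit had already called. A change of sign was therefore unlikely from the start, and its absence says nothing about the remaining values.

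The labels tie replicate numbers to no shared culture or day, and the numbers were not taken as pairs: the differences between replicates correlated between -0.438 and 0.898 over 15 pairs of groups, above 0.1 in 7, among them the TC groups with each other (0.18, 0.346 and 0.428). With the replicate block the counts were 1 for TC shZZZ3, 3 for YT shYEATS2, 2 for YT shZZZ3, 1 for YT shNT against TC shNT and 1 for the interaction of shZZZ3. The calls the block added were LAMA2 in TC shZZZ3 (adjusted p 0.037), LAMA5 in YT shYEATS2 (0.79, 0.0391), LAMB2 in YT shZZZ3 (0.0298) and between the controls (0.0423), and LAMA4 in the interaction of shZZZ3 (0.0292). Over all genes the block gave 353 calls for TC shZZZ3, 4656 for YT shYEATS2, 2283 for YT shZZZ3 and 2225 for YT shNT against TC shNT. For the interaction of shZZZ3 it gave 1021, and each of these was above the main fit. With the block and a GC trend removed the counts were 1 for TC shZZZ3, 3 for YT shYEATS2, 5 for YT shZZZ3, 2 for YT shNT against TC shNT, 2 for the interaction of shYEATS2 and 2 for that of shZZZ3. With the numbers of YT shNT exchanged, chosen after seeing the data, the chain counts were 1, 4, 4, 1, 2 and 1 for TC shZZZ3, YT shYEATS2, YT shZZZ3, YT shNT against TC shNT and the 2 interactions. Over all genes they were 441, 5172, 2647, 2602, 2521 and 1202.

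Over all genes, calls ranged from 0 to 213 in TC shYEATS2 (8), 50 to 968 in TC shZZZ3 (281), 1516 to 8784 in YT shYEATS2 (3821), 501 to 4545 in YT shZZZ3 (1846), 470 to 4128 in YT shNT against TC shNT (1699), 789 to 4335 in the interaction of shYEATS2 (1725) and 206 to 2539 in that of shZZZ3 (795).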
